A study of Mus musculus with 40 samples.

Results

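The change from the 1-cell to the 2-cell stage was examined in parthenogenetic mouse embryos, which develop from an egg activated without sperm and so carry no paternal genome. It rests on 8 of the 39 arrays with values, chosen by their titles: 4 arrays of 2-cell and 4 arrays of 1-cell parthenogenetic embryos of the B6D2 hybrid background, with all genes measured. Other B6D2 groups are set beside them. They are untreated embryos made by somatic cell nuclear transfer (SCNT), in which a cumulus cell nucleus replaces that of the egg (4 arrays at the 2-cell and 3 at the 1-cell stage), fertilized embryos cultured with α-amanitin, which blocks RNA polymerase II (4 arrays per stage, read from the letter A in their titles), and untreated fertilized embryos (4 arrays per stage). All 39 arrays, SCNT embryos with α-amanitin included, entered the normalization, the filter and the estimate of spread behind the p-values of genes. For the parthenogenetic embryos the labels give no activating agent, ploidy, medium, hour of collection or number of embryos per array. A medium is named for SCNT embryos (MEMα) and for 1 fertilized sample (KSOM), so origin and culture cannot be told apart. The labels are silent on whether replicate arrays stem from different cultures, and p-values then measure only the spread between these samples.

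A mammalian egg is transcriptionally silent and lives on RNA that the oocyte made and stored during its growth. After activation this maternal RNA is translated and then destroyed, while the embryo's own genome is switched on, in the mouse with a main wave at the 2-cell stage. In a parthenogenetic embryo both steps run without anything that sperm brings, and the imprinted genes that are normally read from the paternal allele have only maternal copies.

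Promoters of several genes that rose are shown because they carry motifs tied to the known induction of these genes. They are RefSeq windows of the GRCm38.p6 build, from 250 bases before to 50 after the start of the gene, written 5′ to 3′ on the gene's strand. For the metallothioneins, small metal-binding proteins, capitals mark the metal response element core (TGCACNC or TGCGCNC on either strand), which 25.6% of the 27025 promoters of that length hold.
Mt1: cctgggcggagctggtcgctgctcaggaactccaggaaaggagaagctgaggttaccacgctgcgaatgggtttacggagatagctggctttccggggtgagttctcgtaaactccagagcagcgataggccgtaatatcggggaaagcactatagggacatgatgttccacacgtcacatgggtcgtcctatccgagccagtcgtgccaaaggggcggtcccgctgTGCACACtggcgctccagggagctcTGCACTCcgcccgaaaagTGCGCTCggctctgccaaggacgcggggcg
Mt2: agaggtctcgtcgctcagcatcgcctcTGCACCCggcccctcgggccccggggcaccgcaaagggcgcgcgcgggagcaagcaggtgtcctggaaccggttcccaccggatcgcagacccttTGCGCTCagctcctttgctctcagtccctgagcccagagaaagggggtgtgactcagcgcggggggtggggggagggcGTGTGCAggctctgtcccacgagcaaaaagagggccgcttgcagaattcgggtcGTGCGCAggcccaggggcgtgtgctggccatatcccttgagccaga
Mt1 (chr8:94178839-94179138, plus strand) has 3 matches and Mt2 (chr8:94172368-94172667, plus strand) has 4. For the inducible HSP70 genes, which encode chaperones made under heat or protein damage, capitals mark the minimal heat shock element GAANNTTC, present in 7.95% of all promoters and the same on both strands.
Hspa1a: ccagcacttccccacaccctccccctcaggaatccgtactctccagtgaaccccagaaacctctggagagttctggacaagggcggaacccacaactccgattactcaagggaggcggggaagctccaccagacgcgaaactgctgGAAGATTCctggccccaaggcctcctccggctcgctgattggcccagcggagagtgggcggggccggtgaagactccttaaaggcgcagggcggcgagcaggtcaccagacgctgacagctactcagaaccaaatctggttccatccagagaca
Hspa1b: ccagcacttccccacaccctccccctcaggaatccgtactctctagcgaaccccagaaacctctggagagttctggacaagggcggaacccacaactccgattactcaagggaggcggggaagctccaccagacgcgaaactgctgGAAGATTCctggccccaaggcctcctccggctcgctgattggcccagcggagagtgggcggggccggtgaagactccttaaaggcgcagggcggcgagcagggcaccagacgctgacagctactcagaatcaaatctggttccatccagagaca
Hspa1a (chr17:34972107-34972406, minus strand) and Hspa1b (chr17:34959189-34959488, minus strand) hold 1 match each, and the windows differ at 4 of 300 positions. For Zfp352, a zinc-finger gene switched on at the 2-cell stage, capitals mark TAATCC, the core bound by CRX-like and OBOX homeodomains, which 7.16% of all promoters hold.
Zfp352: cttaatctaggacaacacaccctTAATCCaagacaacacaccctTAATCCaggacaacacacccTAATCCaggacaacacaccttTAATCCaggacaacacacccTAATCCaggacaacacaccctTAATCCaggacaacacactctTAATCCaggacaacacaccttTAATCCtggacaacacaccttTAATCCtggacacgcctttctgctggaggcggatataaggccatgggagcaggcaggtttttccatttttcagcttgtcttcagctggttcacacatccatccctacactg
The Zfp352 window (chr4:90218570-90218869, plus strand) has 9 matches in a run of repeats. These matches are descriptions of the letters and not evidence of binding.

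The values are probe set intensities on a linear scale, which the authors scaled to the same trimmed mean of 150 on every array. Replicates correlated across genes at 0.957 to 0.966 among 2-cell and 0.973 to 0.975 among 1-cell arrays, against 0.825 to 0.840 between the stages, and the first principal component of the 8 arrays held 75% of the variance. The 18S control probe sets averaged 11.22 ± 0.24 on 2-cell and 12.98 ± 0.16 on 1-cell arrays (log2, SD, n = 4 each). That difference of -1.76 gave p = 0.0286 in a two-sided exact permutation test, the smallest p that 4 against 4 allows, and 0.0715 after adjustment over 5 control measures. The 3′ minus 5′ signal of Actb was 2.27 ± 0.06 on 2-cell and 2.25 ± 0.21 on 1-cell arrays, and array medians of log2 values were 5.43 to 5.66 and 5.01 to 5.19. The part of these differences in the results below was not tested. Poly(A) RNA was measured, so less RNA of a gene and shorter tails, or less RNA in each embryo, cannot be told apart.

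Many genes changed. Of 14916 genes, 3238 (21.7%) were higher and 4090 (27.4%) lower at the 2-cell stage by limma with Benjamini-Hochberg adjustment at a threshold of 0.05, 49.1% together. These genes are said below to have risen or fallen. Rises were fewer than falls but outnumbered them at the extreme: 138 genes (0.925%) rose and 3 (0.0201%) fell by at least 16-fold, while 1686 (11.3%) rose and 2220 (14.9%) fell by at least 2-fold. The arrays of the stages did not overlap for 7236 genes (48.5%). Scaling moved the balance between the directions, since the share of called genes that rose was 44.2% with quantile normalization, 56.4% with the values as deposited (4527 higher, 3502 lower) and 27.6% with median centring (2126 higher, 5581 lower). The median difference over all genes was -0.04, 0.20 and -0.26 in the same order, and the differences given below are log2 differences, 2-cell minus 1-cell, with their standard error (SE), from the quantile-normalized fit (4 arrays per group).

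Several of the largest rises, though not all, were in genes at or near the floor at the 1-cell stage. Prmt6, which methylates arginine in histone H3, had probe set intensities of 2018, 2109.9, 2066 and 1724 on the 2-cell arrays, against 3.7, 1.3, 4.6 and 6.0 on the 1-cell arrays, and its log2 difference was 7.51 ± 0.41 (adjusted p = 1.6e-18). All 4 2-cell arrays lay far above all 4 1-cell arrays, and since the 1-cell values are under the constant of 6.9 added before taking logs, the size depends on it (8.40 with 1.8 and 6.29 with 22.1). Crxos, a homeobox gene, had 2016, 2446, 1880.2 and 1740.4 on the 2-cell arrays, against 28.1, 1.2, 2.0 and 3.8 on the 1-cell arrays (7.24 ± 0.36). Obox6, of the oocyte-specific homeobox family, had 2029, 2321, 2184 and 1830.4 on the 2-cell arrays, against 9.5, 12.1, 5.7 and 32.7 on the 1-cell arrays (6.60 ± 0.29). Both were low on every 1-cell array and high on every 2-cell array. The other genes among the 12 largest rises were Mt1 (7.08), Tdpoz1, a gene of the TD and POZ domain family (6.47), Ficd, which modifies the endoplasmic reticulum chaperone BiP (6.04), Exoc3l2 (6.01), Mgat2, an enzyme of N-glycan processing in the Golgi (5.95), the small GTPase Rab20 (5.93), the surface glycoprotein Cd24a (5.90), Guca1a, a guanylate cyclase activator best known from photoreceptors (5.88), and Dbp, a circadian transcription factor (5.84).

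Of the list of genes known to be switched on at the 2-cell stage, 21 of 29 measured members rose, 6 fell and 2 did not pass the test, with a median difference of 4.17 against -0.04 over all genes. Zfp352 had 8110.0, 7218, 8035 and 7257 on the 2-cell arrays, against 354, 342, 491 and 531 on the 1-cell arrays (4.17 ± 0.25). Obox3 had 2519, 2347, 2182 and 2332 on the 2-cell arrays, against 104, 76, 99 and 104 on the 1-cell arrays (4.44 ± 0.29). For both genes every 2-cell array was at least several times higher than any 1-cell array. Rises were also called for Calcoco2, an autophagy receptor (5.29 ± 0.40), Pramel7, a PRAME-family gene (4.66 ± 0.28), and the 2-cell-specific transcripts Tcstv3 (3.03 ± 0.19) and Tcstv1 (2.09 ± 0.18). Eif1a, a translation initiation factor often used to mark genome activation, rose by 0.99 ± 0.28, while another of its probe sets, brighter at the 2-cell stage, gave 3.88. Arg2, the mitochondrial arginase, was at 1918, 1809, 1762 and 1619.8 on the 2-cell arrays, against 1748, 1787, 1857 and 1843 on the 1-cell arrays (adjusted p = 0.29). Of the 21 rising members, 14 have a promoter in the RefSeq table, and 6 of these hold TAATCC.

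**Figure D1:**
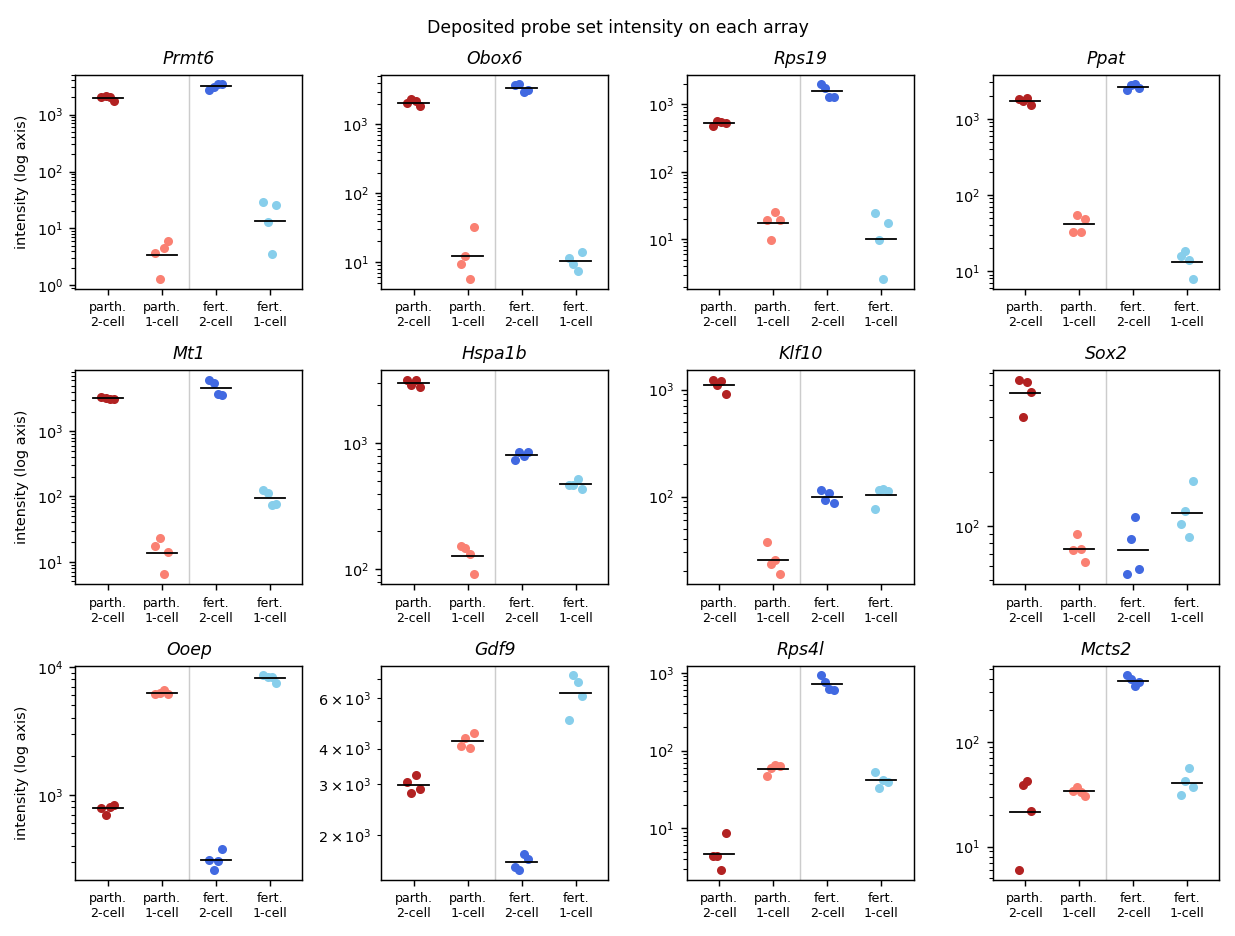
Probe set intensity (log axis) of 12 genes on each array of parthenogenetic and fertilized embryos, 2-cell left of 1-cell in each pair, 4 points per group with a line at their geometric mean. Prmt6 is between 1724 and 2110 on the parthenogenetic 2-cell arrays and at most 6.0 on the 1-cell arrays, Klf10 is high only in the parthenogenetic 2-cell group among these 4, and Rps4l is at or under 8.8 there.

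Ribosome genes were among those that rose most often, while over all genes 21.7% rose and 27.4% fell. Of the cytosolic ribosomal proteins, 40 of 47 rose, 3 fell and 4 did not pass, with a median of 2.07. Rps26, of the small subunit, had 2206, 2324, 2047 and 2026 on the 2-cell arrays, against 80.0, 74, 63.5 and 112 on the 1-cell arrays (4.52 ± 0.23). Rps19, also of the small subunit and needed for its maturation, had 474, 569, 544 and 534 on the 2-cell arrays, against 19.1, 9.7, 25.4 and 19.1 on the 1-cell arrays (4.27 ± 0.36), and Rpl41, the smallest protein of the large subunit, had 2475, 2556, 2079.9 and 1851 on the 2-cell arrays, against 154, 148, 113 and 122 on the 1-cell arrays (3.96 ± 0.18). None of these 3 genes had overlapping stages, whereas Rpl13a was at 2437, 2112, 2206 and 2471 on the 2-cell arrays, against 2616, 2712, 2529.5 and 2362 on the 1-cell arrays (adjusted p = 0.97), and it was called lower with median centring and higher with the mean of its probe sets. Of the ribosome assembly factors 54 of 88 rose and 10 fell, with a median of 0.59 (38 and 22, median 0.17, with median centring). Among them were Taf1d, a component of the RNA polymerase I initiation factor SL1 (4.34 ± 0.18), Polr1c, a subunit shared by RNA polymerases I and III (3.67 ± 0.18), and the nucleolar proteins Nop16 (4.24 ± 0.30), Nop2 (3.36 ± 0.40) and Rrp12 (3.51 ± 0.34). Wdr46, another nucleolar protein, was at 229, 211, 229.6 and 211 on the 2-cell arrays, against 211, 199, 209 and 202 on the 1-cell arrays (adjusted p = 0.93).

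Other parts of gene expression machinery moved both ways. Of translation initiation and elongation factors 17 of 48 rose and 20 fell (9 and 30 with median centring), where 21.7% of all genes rose and 27.4% fell. The somatic poly(A)-binding protein Pabpc1 had 3621, 3651, 3328 and 2909 on the 2-cell arrays, against 156, 133, 184 and 160.5 on the 1-cell arrays (4.33 ± 0.15), while Eif1b, related to the start-codon factor eIF1, had 829.5, 567, 894 and 729.8 on the 2-cell arrays, against 5551, 6079, 5865 and 5685 on the 1-cell arrays (-2.94 ± 0.11). The stages did not overlap in either gene. Of spliceosome and SR proteins 25 of 66 rose and 28 fell (16 and 36 with median centring). Risers included Srsf1, an SR protein that binds exons (3.89 ± 0.16), U2af1, which reads the 3′ splice site (4.25 ± 0.15), the U1 protein Snrpc (4.17 ± 0.14) and the splicing activator Tra2a (4.16 ± 0.20), and the U5 GTPase Eftud2 fell (-3.48 ± 0.21). Of 4 Eftud2 probe sets past the filter, 1 was called in the opposite direction. RNA polymerase II and its general factors had 32 rising and 26 falling of 84 (18 and 46 with median centring). Cdk9, the kinase of P-TEFb (2.63 ± 0.15), and Hexim1, an inhibitor of P-TEFb (3.86 ± 0.42), both rose. Within Mediator, Med29 rose (4.02 ± 0.26) and Med17 fell (-3.60 ± 0.26). Mitochondrial ribosomal proteins had 19 of 74 rising and 33 falling (13 and 41 with median centring). Aminoacyl-tRNA synthetases had 4 and 9 of 19 (2 and 12 with median centring), among them Iars, for isoleucine (1.49 ± 0.13), and Sars, for serine (-2.50 ± 0.15).

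Protein turnover and folding genes were split in the same way. Of 45 proteasome genes 8 rose and 20 fell (6 and 30 with median centring), where 21.7% of all genes rose and 27.4% fell. Psmb5, the subunit with chymotrypsin-like activity, rose (2.30 ± 0.22), while the assembly chaperone Psmd10 (-2.98 ± 0.22) and the base ATPase Psmc1 (-2.53 ± 0.20) fell. Of the 8 subunits of the CCT chaperonin, which folds actin and tubulin, 4 rose and 3 fell (4 each with median centring), from Cct6a at 4.01 ± 0.23 to Cct7 at -1.18 ± 0.13. Lysosomal and autophagy genes had 17 rises and 7 falls among 43, but 12 and 14 with median centring. The cysteine proteases of the lysosome were among the rises. Ctsl, cathepsin L, had 5614, 5011, 5699.7 and 5132 on the 2-cell arrays, against 182, 197, 187 and 230.1 on the 1-cell arrays (4.67 ± 0.17), and Ctsc (4.51 ± 0.37), Ctsb (2.28 ± 0.13) and the carboxypeptidase Ctsa (3.79 ± 0.21) rose too.

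Metabolic genes gave a similar picture of single large rises within mixed lists. Of purine, serine and one-carbon synthesis genes 12 of 28 rose and 10 fell (9 and 12 with median centring). Ppat, which catalyses the committed step of purine synthesis, had 1841, 1696, 1891 and 1515 on the 2-cell arrays, against 32.6, 54.6, 32.8 and 48.7 on the 1-cell arrays (5.0 ± 0.22). Prps1, which makes its substrate, rose by 5.27 ± 0.38, Adsl, later in the same pathway, by 3.01 ± 0.24, and Psat1, of serine synthesis, by 3.78 ± 0.38. Phgdh, the enzyme before Psat1, was at 281, 309.7, 316 and 333 on the 2-cell arrays, against 252, 244, 269.5 and 291 on the 1-cell arrays (adjusted p = 0.19), and 2 of its 4 probe sets were called in the opposite direction. Among 26 glycolysis and lactate genes 10 rose and 8 fell (8 and 9 with median centring), with rises of the glucose transporter Slc2a3 (3.80 ± 0.25), the monocarboxylate transporter Slc16a1 (3.79 ± 0.35) and the glycolytic enzyme Pgam1 (2.54 ± 0.12). Oxidative phosphorylation had 26 rising and 23 falling of 73 (15 and 30 with median centring), such as the ATP synthase subunit gene Atp5g1 (3.26 ± 0.21) and the complex III core protein Uqcrc2 (-3.26 ± 0.16). Tomm20, the import receptor of the outer mitochondrial membrane, had 5528, 5037, 6370.2 and 5716 on the 2-cell arrays, against 206, 206, 165 and 153 on the 1-cell arrays (4.87 ± 0.19), and Gabpa, a transcription factor for mitochondrial genes, rose by 5.42 ± 0.26, while Tfb1m, which modifies mitochondrial ribosomal RNA, fell (-3.15 ± 0.20).

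**Figure D2:**
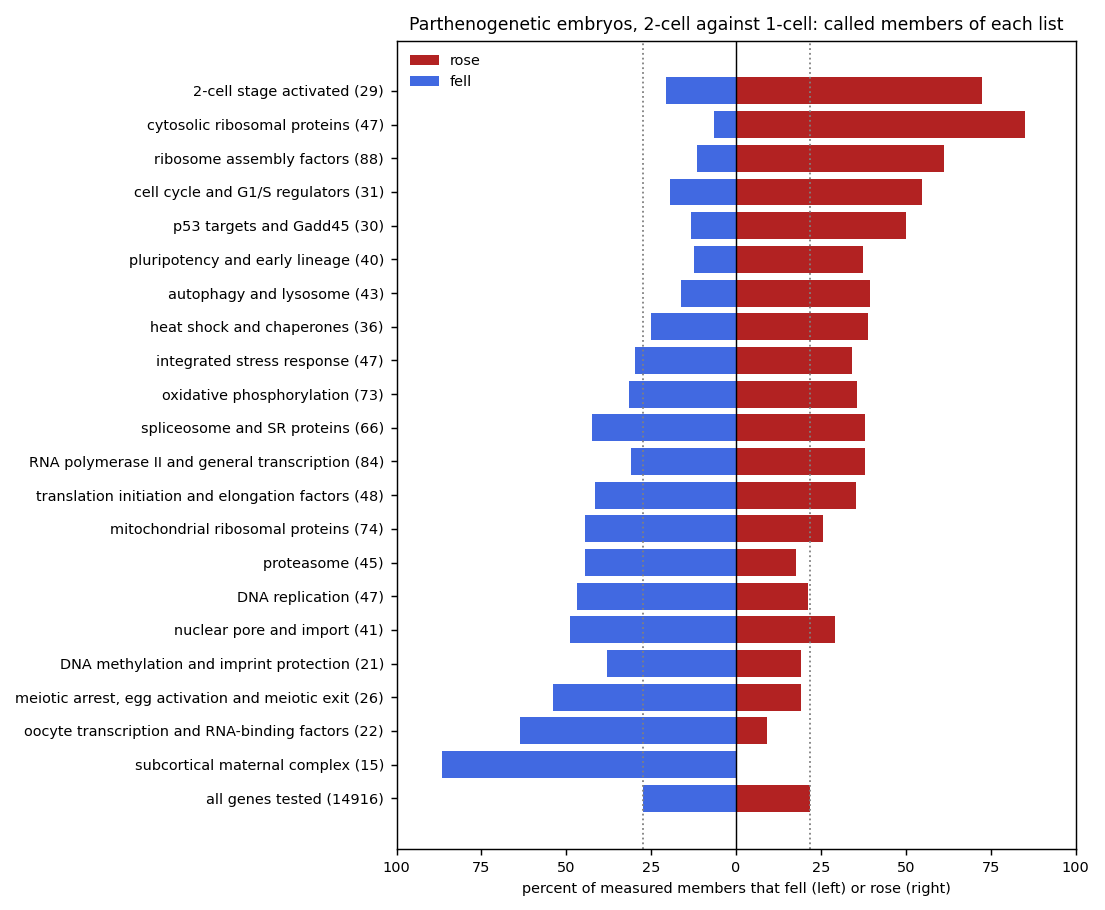
Percent of the measured members of 21 gene lists that fell (left) or rose (right) between the stages of parthenogenetic embryos, with the number of measured members in parentheses and all genes tested at the bottom. Dotted lines mark the shares over all genes, 27.4% lower and 21.7% higher.

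Maternal transcripts fell unevenly. The subcortical maternal complex, a protein lattice of the egg cortex needed for cleavage, was lower in 13 of 15 measured members with no rise, and its median was -1.45. Ooep had 793, 700.5, 810.3 and 834 on the 2-cell arrays, against 6085, 6241, 6542 and 6099 on the 1-cell arrays (-3.0 ± 0.12). Nlrp5, the MATER gene, had 1135, 1092, 1072 and 1058 on the 2-cell arrays, against 3588, 3464, 2879 and 3060.2 on the 1-cell arrays (-1.45 ± 0.09), and Padi6, the peptidylarginine deiminase of the lattice, had 507, 553, 508 and 651 on the 2-cell arrays, against 1797, 1758, 1749.6 and 1954 on the 1-cell arrays (-1.57 ± 0.12). The stages were apart on all arrays for these 3 genes, but Zbed3, of the same complex, had 11735, 10481, 12416 and 11291 on the 2-cell arrays, against 9760.1, 9966, 10695 and 10445 on the 1-cell arrays (adjusted p = 0.42). Of its 3 other probe sets 2 were called lower (-0.93 and -1.47), and so was the mean of its probe sets (-0.59). Of oocyte transcription and RNA-binding factors 14 of 22 fell and 2 rose. The falls included Nobox, an oocyte homeobox factor (-3.15 ± 0.28), Pabpn1l, an embryonic poly(A)-binding protein that acts in maternal RNA clearance (-3.06 ± 0.24), Oas1e (-2.45 ± 0.14), the homeobox gene Lhx8 (-2.09 ± 0.09) and Zar1, which binds maternal RNA (-1.40 ± 0.13). The oocyte linker histone H1f8 fell too (-1.17 ± 0.17).

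Several abundant oocyte transcripts were still bright at the 2-cell stage. Of 8 zona pellucida and oocyte growth factor genes 3 fell, none rose and 5 did not pass (7 fell with median centring, and 4 fell and 1 rose with the values as deposited). Bmp15, a growth factor secreted by the oocyte, had 4304, 3548, 4568 and 4489.8 on the 2-cell arrays, against 4870.4, 5316, 4549.8 and 4553 on the 1-cell arrays (difference -0.15 ± 0.12, adjusted p = 0.30). Another probe set of Bmp15 was called lower (-1.06), as was the gene with probe sets averaged (-0.46) and with median centring (-0.65). Its partner Gdf9 had 3049, 2792, 3241 and 2899 on the 2-cell arrays, against 4079, 4356, 4030.0 and 4528 on the 1-cell arrays, a small fall (difference -0.41 ± 0.08) with no overlap between the stages. The zona genes Zp1 and Zp3 gave 0.04 ± 0.13 and 0.05 ± 0.12 (adjusted p = 0.84 and 0.76), and both were called lower with median centring, while Zp2 fell (difference -0.98 ± 0.10), also with the values as deposited and with median centring. Dppa3, the maternal factor STELLA that shields the maternal genome from demethylation, had 8909, 6937, 9512 and 9490.3 on the 2-cell arrays, against 7736, 7726, 7765 and 7452 on the 1-cell arrays (adjusted p = 0.95). The oocyte marker list as a whole summed to intensities of 27178 to 33143 on 2-cell and 40524 to 41166 on 1-cell arrays, with all 12 measured markers above the overall median at both stages.

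Genes of meiotic arrest and egg activation had 14 falls and 5 rises among 26 (18 and 1 with median centring). Over all genes 27.4% fell and 21.7% rose. Mos, the kinase upstream of MAPK that holds the egg in metaphase, had 8.3, 11.2, 10.5 and 4.7 on the 2-cell arrays, against 55.9, 57.6, 48.5 and 66.5 on the 1-cell arrays (-2.42 ± 0.24), and Camk2g, the calcium-dependent kinase that releases that arrest, had 351, 409, 375 and 353 on the 2-cell arrays, against 2795, 3042, 2874 and 2765 on the 1-cell arrays (-2.83 ± 0.11). Pde3a, the oocyte phosphodiesterase, fell too (-2.46 ± 0.42). The mitotic kinase Cdk1 went the other way, at 3339, 3661, 3696 and 3361 on the 2-cell arrays, against 504, 535, 649.5 and 517 on the 1-cell arrays (2.73 ± 0.14). Of deadenylation and decay genes 10 of 27 rose and 11 fell (5 and 15 with median centring). Tob1, which recruits the CCR4-NOT deadenylase, had 1078, 896, 1234 and 983 on the 2-cell arrays, against 65.8, 60.5, 53.3 and 56.2 on the 1-cell arrays (3.82 ± 0.18) and the AU-rich element binder Zfp36l2 rose (1.75 ± 0.24), while the CCR4-NOT components Cnot4 (-3.05 ± 0.14) and Cnot11 (-2.38 ± 0.12), the decapping scaffold Edc4 (-2.12 ± 0.14) and the deadenylase Parn (-1.84 ± 0.11) fell. Cnot7, a catalytic subunit, was at 0.05 ± 0.09 (adjusted p = 0.72), with another probe set called lower.

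The largest falls did not lie in these lists alone. Zfp57, a zinc-finger protein that keeps methylation at imprinted loci, had 92.7, 28.2, 62.4 and 132 on the 2-cell arrays, against 1362, 1439, 1712 and 2178 on the 1-cell arrays (-4.49 ± 0.37, adjusted p = 3.1e-13). Oma1, a protease of the inner mitochondrial membrane, had 59.9, 39.2, 72.8 and 72.4 on the 2-cell arrays, against 1078, 1176, 1032 and 1068 on the 1-cell arrays (-4.15 ± 0.17), and Pfn1, profilin, which binds actin, had 45.7, 13.5, 36.6 and 12.1 on the 2-cell arrays, against 494, 497, 474 and 472 on the 1-cell arrays (-4.16 ± 0.35). The stages did not overlap in any of these genes. Rgs2, which damps G protein signalling, had 482, 482, 365 and 636 on the 2-cell arrays, against 6274, 6639.7, 6099 and 6029 on the 1-cell arrays (-3.70 ± 0.13). The others of the 12 largest falls were the zinc-finger genes Zfp873 (-3.94) and Zfp383 (-3.81), the NF-κB regulator Nfkbiz (-3.84), Crabp2, which binds retinoic acid (-3.77), the mitochondrial release factor Mrpl58 (-3.76), the transcription factor Rfx4 (-3.75), and Tdrd12 (-3.70) and Tdrd1 (-3.65), Tudor proteins of the piRNA pathway. Rgs2, Nfkbiz and Mrpl58 among these falls, and Exoc3l2 and Mt1 among the largest rises, also had a dimmer probe set that was not called.

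Arrays of fertilized embryos with α-amanitin share no sample with the parthenogenetic ones and show how the same genes behave when transcription is blocked. In fertilized 2-cell embryos amanitin lowered 25.8% of all genes and raised 38.6%. Of the 138 genes that rose at least 16-fold in parthenogenetic embryos, 137 (99.3%) were lower with amanitin and none higher. Of the 1686 that rose at least 2-fold the shares were 85.3% lower and 1.19% higher, and of all 3238 rising genes 63.5% and 15.3%. Of the 4090 genes that fell, 71.2% were higher with amanitin in fertilized 2-cell embryos. Among the 2220 that fell at least 2-fold, 1080 (48.6%) also fell between the stages in amanitin-treated fertilized embryos, against 19% of all genes (2839 genes, and 4410 with median centring).

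**Figure D3:**
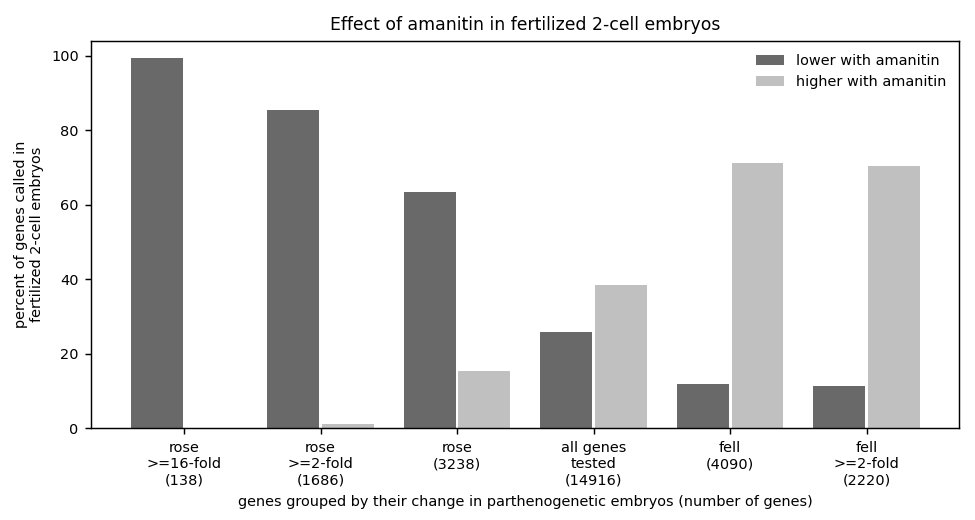
Percent of genes called lower or higher with amanitin in fertilized 2-cell embryos, for genes grouped by their change between the stages of parthenogenetic embryos, with the number of genes below each pair of bars. The share lower with amanitin is 99.3% among genes that rose at least 16-fold, 25.8% over all genes and 11.8% among genes that fell.

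Some large changes did not follow that pattern. Among the 6 largest rises that were not lower with amanitin in fertilized 2-cell embryos, Ier3, an early response gene that limits cell death, had 436, 226, 425 and 492 on the 2-cell arrays, against 13.8, 19.6, 26.4 and 17.3 on the 1-cell arrays (3.71 ± 0.25). Hes1, a repressor downstream of Notch, had 290.2, 422, 377 and 481 on the 2-cell arrays, against 33.1, 10.5, 19.2 and 22.3 on the 1-cell arrays (3.67 ± 0.37), and Id1, an inhibitor of bHLH factors, had 138, 182, 205 and 209.7 on the 2-cell arrays, against 31.1, 17.2, 18.2 and 2.9 on the 1-cell arrays (2.87 ± 0.45). In untreated fertilized embryos the differences of these 3 genes were 0.15, 0.10 and 0.62, none of them called. The remaining ones were Zfp30 (3.29 ± 0.25), the mitochondrial RNA methyltransferase Mrm1 (2.94 ± 0.40) and Dmrta2 (2.82 ± 0.33). On the falling side, Ifit1bl1, of a family induced by interferon, had 197, 180.3, 194 and 198 on the 2-cell arrays, against 2529, 2579, 2671 and 2309 on the 1-cell arrays (-3.62 ± 0.13), and a difference of -0.23, not called, between the stages of amanitin-treated fertilized embryos. The syntaxin Stx8 (-3.43 in parthenogenetic and -0.31 in amanitin-treated fertilized embryos), the DNA repair factor Aplf (-3.42 and 0.23), Mocos (-3.26 and -0.69), Fam162b (-3.25 and -0.60) and Cd7 (-3.21 and -0.32) likewise fell in parthenogenetic embryos and were not called lower under amanitin.

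Genes induced by stress or signals were among the larger rises. Mt1 had 3347, 3173, 3117 and 3086 on the 2-cell arrays, against 17.4, 22.8, 6.4 and 14 on the 1-cell arrays (7.08 ± 0.28), and Mt2, whose promoter is shown beside it, had 6599, 6128, 6784 and 6179 on the 2-cell arrays, against 87.5, 86.5, 114 and 93.4 on the 1-cell arrays (5.83 ± 0.17). The zinc exporter Slc30a1, regulated by the same metal sensor, rose too (2.80 ± 0.24). Both metallothioneins were at or under 114 on every 1-cell array and at or above 3086 on every 2-cell array. Of the metal, antioxidant and glutathione list as a whole 10 of 33 rose and 13 fell (11 each with the values as deposited), Prdx4, a peroxidase of the secretory pathway, being among the rises (3.31 ± 0.23) and the glutathione transferase Gsta4 among the falls (-3.29 ± 0.28).

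Within the heat shock list 14 of 36 rose and 9 fell (12 and 14 with median centring). Hspa1b had 3197, 2933, 3193 and 2825 on the 2-cell arrays, against 154, 147, 133 and 91.3 on the 1-cell arrays (4.43 ± 0.18), and Hspa1a had 1504, 1658, 1520.2 and 1406 on the 2-cell arrays, against 16.3, 43.1, 19.8 and 27.3 on the 1-cell arrays (5.41 ± 0.29). Their transcripts are near-identical, so the probe sets may share signal. Hspa2, the HSP70 gene known from spermatocytes, had 790.0, 751, 645 and 754 on the 2-cell arrays, against 87.6, 76.2, 66.9 and 85.1 on the 1-cell arrays (2.97 ± 0.27), and the constitutive Hspa8 rose by 1.92 ± 0.16. The HSP40 partners Dnajb1 (-1.46 ± 0.12) and Dnajb4 (-1.71 ± 0.09) fell on all arrays. Hsph1, an HSP110 exchange factor, rose by 1.06 ± 0.15 and the HSP90 co-chaperone Fkbp4 by 2.45 ± 0.30. Of 3 Fkbp4 probe sets past the filter, the 2 others were not called (0.29 and 0.43). The heat shock element GAANNTTC was present in 7 of the 13 rising members with a promoter in the RefSeq table and in 4 of 17 of the other members, against 7.95% of all promoters.

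Immediate early genes had 9 rises and 4 falls among 31, against 21.7% and 27.4% over all genes. With the values as deposited the list had 13 and 2, and with median centring 6 and 4. Klf10, a zinc-finger factor induced by TGF-β, had 1233, 1092, 1202 and 906 on the 2-cell arrays, against 37.2, 23.4, 25.3 and 18.7 on the 1-cell arrays (4.91 ± 0.24, adjusted p = 3.8e-20). Ier2, another immediate early gene, had 789.6, 475, 668 and 992 on the 2-cell arrays, against 17.4, 5.3, 2.1 and 10.1 on the 1-cell arrays (5.49 ± 0.42), with no 1-cell array near any 2-cell array in either gene, and the MAPK phosphatase Dusp1 fell (-2.27 ± 0.16). Of p53 targets and Gadd45 genes 15 of 30 rose and 4 fell (10 and 9 with median centring), led by Sesn2, a brake on mTORC1 (4.36 ± 0.21), the growth arrest gene Gadd45b (4.11 ± 0.32) and Btg1 (2.96 ± 0.22). Cdkn1a, the p21 inhibitor, had 153, 305, 250.5 and 193 on the 2-cell arrays, against 75.9, 56.6, 106 and 74.2 on the 1-cell arrays (1.22 ± 0.24), and Ppm1d, a phosphatase that opposes p53, fell (-2.63 ± 0.17). Integrated stress response genes were mixed (16 rose, 14 fell of 47, but 12 and 22 with median centring). Its central factor Atf4 rose by 1.36 ± 0.14, its targets Trib3 by 3.29 ± 0.32 and Ddit3 by 1.32 ± 0.30, and the eIF2α phosphatase subunits Ppp1r15a and Ppp1r15b by 2.61 ± 0.17 and 3.51 ± 0.20, whereas Atf3 was at 67.5, 34.4, 53.1 and 56.2 on the 2-cell arrays, against 62.6, 31.8, 66.3 and 60.5 on the 1-cell arrays (adjusted p = 0.27). Among 26 BCL2-family and apoptosis genes 8 rose and 4 fell (5 and 8 with median centring), with rises of the BH3-only gene Bid (1.94 ± 0.31) and the survival factor Mcl1 (0.94 ± 0.14) and a fall of Casp8, an initiator caspase (-2.74 ± 0.29). All 6 probe sets of Mcl1 rose, from 0.61 to 4.79, the largest on the probe set brightest at the 2-cell stage.

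Cell cycle regulators had 17 rises and 6 falls among 31 (14 and 8 with median centring), where 21.7% of all genes rose and 27.4% fell. Ccne1, cyclin E1, had 3096, 4510.3, 3044 and 3397 on the 2-cell arrays, against 343, 328, 346 and 396 on the 1-cell arrays (3.33 ± 0.13), and Ccne2 (2.29 ± 0.21) and the mitotic phosphatase Cdc25c (3.24 ± 0.21) rose too. The CDK inhibitor Cdkn2c had 741, 692, 585 and 544 on the 2-cell arrays, against 46.4, 49.7, 59.5 and 76.7 on the 1-cell arrays (3.13 ± 0.21). DNA replication genes leaned the other way, with 10 rises and 22 falls among 47 (5 and 33 with median centring). Even so, the single-strand binding subunit Rpa2 (3.03 ± 0.21) and the origin licensing genes Orc1 (2.17 ± 0.21) and Cdc6 (2.14 ± 0.37) rose. The checkpoint kinase Ttk fell (-2.69 ± 0.14) in a kinetochore list with 11 rises and 19 falls of 40 (4 and 23 with median centring).

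Chromatin genes included some of the strongest rises. Wdr77, a partner of the arginine methyltransferase PRMT5, had 1060.5, 1409, 1302 and 1216 on the 2-cell arrays, against 18.4, 23.1, 17.3 and 17.4 on the 1-cell arrays (5.43 ± 0.28). Hdac1, a histone deacetylase, had 1900.4, 1994, 1861 and 1619.8 on the 2-cell arrays, against 145, 157, 173 and 142 on the 1-cell arrays (3.50 ± 0.23), and Kdm5b, which removes methyl groups from H3 lysine 4, rose by 3.57 ± 0.14. The acetyltransferase Kat2b was at 65.6, 49.1, 69.4 and 63.7 on the 2-cell arrays, against 29.4, 34.6, 26.3 and 33.5 on the 1-cell arrays (difference 0.42 ± 0.31, adjusted p = 0.27, but called higher with the values as deposited, at 0.86). Among DNA methylation and imprint protection genes 8 of 21 fell and 4 rose. Besides Zfp57 the falls included the maintenance methyltransferase Dnmt1 (-1.18 ± 0.21), its cofactor Uhrf1 (-1.41 ± 0.17), the de novo enzyme Dnmt3a (-2.0 ± 0.12) and the oxidase Tet3 (-2.07 ± 0.40), and Arid4a rose (2.62 ± 0.16). Dnmt3l, the regulatory cofactor of imprint setting in the oocyte, was at 309.6, 269, 393 and 341 on the 2-cell arrays, against 383, 381, 349 and 466 on the 1-cell arrays (adjusted p = 0.14), and it was called lower with median centring (-0.72) and without 2-cell replicate 3 (-0.33).

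Of 24 measured imprinted genes read from the paternal allele, 2 rose, 7 fell and 15 were not called, against 5, 10 and 15 of 30 read from the maternal allele, while 49.1% of all genes were called. With the values as deposited the paternal list had 5 rises and 3 falls, and the maternal list 9 and 7. Impact, a paternally read gene, had 14.3, 42.7, 27.6 and 49.7 on the 2-cell arrays, against 15, 22.2, 20.5 and 15.2 on the 1-cell arrays (difference 0.18 ± 0.41, adjusted p = 0.76), while fertilized embryos had 99.1, 115, 150.2 and 146 at the 2-cell and 30.7, 28.8, 13.7 and 8.9 at the 1-cell stage. Jade1, which in mouse preimplantation embryos is imprinted through histone methylation, had 58.4, 70.1, 40.7 and 81.3 on the 2-cell arrays, against 17.5, 15, 35.7 and 48.2 on the 1-cell arrays (adjusted p = 0.062). It was called higher with the values as deposited (1.02) and without 1-cell replicate 3 (0.70), 1-cell replicate 4 (0.84) or 2-cell replicate 3 (0.79). In fertilized embryos it had 344, 439, 443 and 525 at the 2-cell and 33.2, 34.4, 32.9 and 31.4 at the 1-cell stage. Mcts2, a paternally read retrogene, had 6.0, 38.8, 42.2 and 22 on the 2-cell arrays, against 34.3, 37.4, 33.5 and 30.5 on the 1-cell arrays, while fertilized 2-cell arrays had 431, 400.0, 342 and 371 and fertilized 1-cell arrays 30.8, 42.1, 56.3 and 36.8. Its fall in parthenogenetic embryos (difference -0.88 ± 0.27) was no longer called with the values as deposited, with only the compared arrays and without 2-cell replicate 1. For Impact, Jade1 and Mcts2 every fertilized 2-cell array was above every parthenogenetic 2-cell array, and the difference in stage change was -2.07 ± 0.58, -2.78 ± 0.38 and -3.84 ± 0.38 (adjusted p = 0.004, 1.8e-07 and 1.3e-10). Sfmbt2 was not called in either kind of embryo (-0.70 and -0.05), but it was called lower in parthenogenetic embryos without 2-cell replicate 1. Peg3 gave -0.18 and -0.13, and it was called lower in parthenogenetic embryos with median centring (-0.50). Mest fell in both (-0.67 ± 0.09 in parthenogenetic and -1.47 in fertilized embryos), and the difference in stage change was positive (0.80). Of the 24 paternally read genes, 4 had a more positive and 3 a more negative stage change than in fertilized embryos. The other 17 were not called, and over all genes the shares were 19.8% more positive and 15.7% more negative.

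Xist is the RNA that coats the inactive X chromosome, and early female embryos read it from the paternal allele. In parthenogenetic embryos it had 362, 268, 292 and 272 on the 2-cell arrays, against 66.3, 59.4, 87.8 and 75.4 on the 1-cell arrays (1.75 ± 0.18), and it rose by 0.90 in fertilized embryos. The difference of 0.85 ± 0.26 between them was called (adjusted p = 0.008). Sex and origin cannot be told apart in it, since only the fertilized embryos can carry a Y chromosome. Kcnq1ot1 also rose (1.30 ± 0.40), with overlapping stages and not with the mean of its probe sets, and Plagl1 fell (-1.21 ± 0.38), again not with that mean. Among genes read from the maternal allele, the sterol reductase Dhcr7 rose (2.78 ± 0.37), while the signal peptide peptidase H13 (-2.46 ± 0.14), Gnas (-1.43 ± 0.11) and the CDK inhibitor Cdkn1c (-0.85 ± 0.21) fell. Embryos without a paternal genome carry no Y chromosome, and none of the 5 measured Y-linked genes passed the test. Eif2s3y was still called lower with median centring (-0.86) and without the intensity trend of the variance (-0.53). Eif2s3y had intensities of 1.0, 0.5, 1.3 and 1.2 on the 2-cell arrays, against 5.4, 1.7, 6.6 and 1.4 on the 1-cell arrays. Fertilized 2-cell arrays had 97.5, 110.0, 160.3 and 167 and fertilized 1-cell arrays 8.5, 0.5, 1.7 and 10.3, so all but the fertilized 2-cell values are at or under 10.3. Another probe set of Eif2s3y, which represents it when dim probe sets are kept, showed no such difference.

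Pluripotency and early lineage genes had 15 rises and 5 falls among 40. Klf5, a Krüppel-like factor of the early embryo, had 651, 712, 590.5 and 689 on the 2-cell arrays, against 27.7, 29.6, 24.9 and 32.5 on the 1-cell arrays (4.02 ± 0.18), and Tbx3, a T-box factor, had 951, 1094, 1088 and 1007 on the 2-cell arrays, against 49.6, 49.7, 51.7 and 47.5 on the 1-cell arrays (4.02 ± 0.22). Sox2 had 644, 402, 629.5 and 550.3 on the 2-cell arrays, against 73.4, 90.2, 74.3 and 62.9 on the 1-cell arrays (2.60 ± 0.29). All 3 genes were higher on every 2-cell array. Fbxo15, a target of OCT4 and SOX2, rose by 4.40 ± 0.17 and Dppa4 by 3.52 ± 0.19, and Gata3 fell (-3.12 ± 0.25). Pou5f1, which encodes OCT4, was at 1694, 1646, 1668 and 2054 on the 2-cell arrays, against 1629, 1704, 1696 and 1646 on the 1-cell arrays, and its rise of 0.25 ± 0.11 was lost in several settings, among them leaving out any 1-cell array. Klf4 rose by 0.53 ± 0.15 with overlapping stages, and Myc was at 9.7, 22.9, 22.9 and 21.3 on the 2-cell arrays, against 2.1, 9.5, 3.4 and 13.4 on the 1-cell arrays (adjusted p = 0.25). Cdx2, the trophectoderm factor, was near the floor (27, 4.2, 35.4 and 26.7 on 2-cell and 27.6, 4.7, 9.1 and 6.7 on 1-cell arrays).

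Of 16 cumulus and granulosa markers 1 rose and 2 fell (3 and 1 with the values as deposited), 7 were above the overall median at each stage, and their intensities summed to 1542 to 1737 on 2-cell and 671 to 703 on 1-cell arrays. The part of this difference in the other results was not tested. The marker that rose was Amhr2, the receptor of anti-Müllerian hormone, at 723, 881, 803 and 651 on the 2-cell arrays, against 14.3, 37.8, 28.8 and 30.8 on the 1-cell arrays (4.32 ± 0.28). It rose also in fertilized (5.80) and SCNT embryos (6.16) and was lower with amanitin (-5.78). Has2, Tnfaip6, Hsd3b1, Inhba, Vim, Lox and Timp1 lay under the overall median at both stages. The 6 measured sperm and spermatid markers summed to 240.5 to 320 on 2-cell and 190 to 255 on 1-cell arrays, with no rise and 1 fall (Prm2, -0.95 ± 0.31), against 2 rises and no fall with the values as deposited. Of the 6, 4 were above the overall median at the 2-cell and 3 at the 1-cell stage. The 6 measured trophectoderm markers summed to 685 to 803 on 2-cell and 1397 to 1594 on 1-cell arrays, with 4 and 5 above the overall median. Of these Eomes rose (1.24 ± 0.35), Gata3 (-3.12) and Tfap2c (-1.27 ± 0.23) fell, and Krt8 (-0.20), Krt18 (-0.26) and Cdx2 were not called.

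The stage change of parthenogenetic embryos was then tested against that of fertilized embryos, on 16 arrays with none shared. It differed for 5286 genes (35.4%), 2949 of them more positive (19.8%) and 2337 more negative (15.7%) in parthenogenetic embryos. With median centring the split was 1870 more positive and 2863 more negative, so the balance of directions rests on the scaling. Against SCNT embryos 6026 genes differed (40.4%), 3392 more positive (22.7%) and 2634 more negative (17.7%). Opposite calls were few: 188 genes rose in parthenogenetic and fell in fertilized embryos, and 200 fell in parthenogenetic and rose in fertilized embryos. Of the 3238 genes that rose in parthenogenetic embryos 2298 (71%) also rose in fertilized ones, where 25.8% of all genes rose. Of the 4090 that fell, 3279 (80.2%) also fell there, against 34.2% of all genes.

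To compare the sizes without choosing genes on either kind of embryo, genes were taken by the SCNT arrays alone. The 2911 genes that rose at least 2-fold in SCNT embryos (19.5% of all) had a median difference of 0.84 in parthenogenetic and 1.79 in fertilized embryos, and 59.3% of them rose in parthenogenetic against 83.8% in fertilized embryos. The 3481 genes that fell at least 2-fold there (23.3%) had medians of -0.89 in parthenogenetic and -1.56 in fertilized embryos, and 71.7% and 90% of them fell. In both sets the median was nearer 0 in parthenogenetic embryos, while over all genes the medians were -0.04 and -0.13. In the first set the stage change of 1416 genes was called more negative and that of 87 more positive than in fertilized embryos. In the second set 105 were more negative and 1830 more positive.

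**Figure D4:**
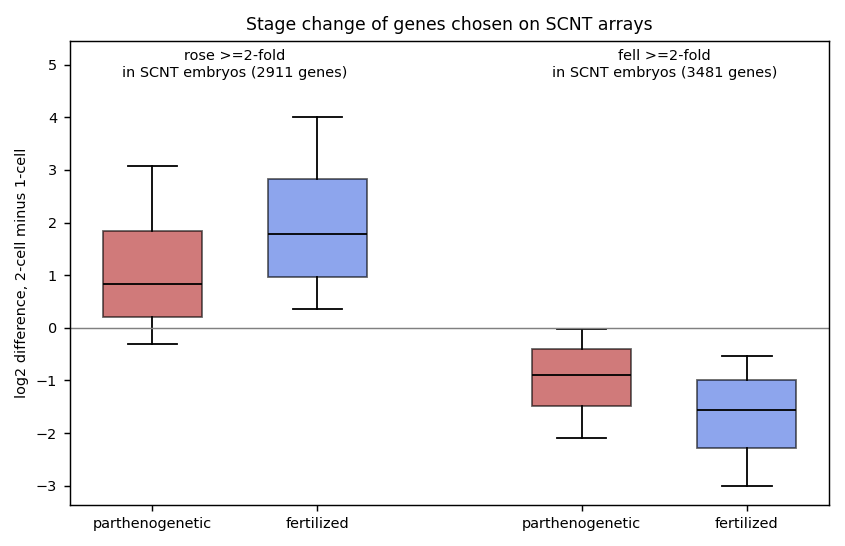
Log2 difference between the stages in parthenogenetic and fertilized embryos for genes chosen on SCNT arrays only. Boxes span the quartiles over genes with a line at the median, and whiskers run from the 10th to the 90th percentile. The medians are 0.84 and 1.79 for genes that rose in SCNT embryos and -0.89 and -1.56 for genes that fell.

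The gene lists gave these counts of called differences, where 19.8% of all genes were more positive and 15.7% more negative than in fertilized embryos. Of the 47 ribosomal protein genes 27 had a more negative stage change than in fertilized embryos and 0 a more positive one (medians 2.07 and 3.0), and of the 88 ribosome assembly factors 52 and 2 (medians 0.59 and 1.76). In the subcortical maternal complex 13 of 15 genes had a more positive stage change and 0 a more negative one (medians -1.45 and -2.76), and in the zona and growth factor list 6 of 8 and 0. Rps19 rose by 4.27 in parthenogenetic and 6.34 in fertilized embryos (difference -2.07 ± 0.50), Psat1 by 3.78 and 7.14 (-3.36 ± 0.53), and Ctsc by 4.51 and 7.65 (-3.14 ± 0.53). Zar1 fell in both (differences -1.40 and -3.80, 2.40 ± 0.19 between them), and Bmp15 had differences of -0.15, not called, and -2.30 (2.15 ± 0.16). In the 2-cell list 7 of 29 genes were more positive and 9 more negative, and its medians were 4.17 in parthenogenetic and 4.38 in fertilized embryos. Prmt6, Tdpoz1 and Obox3 did not pass the test of a difference (0.34 ± 0.59, 0.08 ± 0.50 and 0.03 ± 0.41), whereas Obox6 and Pramel7 did (-1.08 ± 0.40 and -2.88 ± 0.40). For Obox6 the call was lost with the values as deposited, with the constant of 1.8 and on leaving out any of several single arrays.

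Other genes differed the other way, with a rise in parthenogenetic embryos that fertilized embryos lacked or had to a lesser degree. Klf10 was most extreme, at 1233, 1092, 1202 and 906 on parthenogenetic 2-cell arrays and 115, 92, 108 and 86.5 on fertilized 2-cell arrays. At the 1-cell stage it was at 37.2, 23.4, 25.3 and 18.7 on parthenogenetic and 75.8, 114, 116 and 112 on fertilized arrays (difference in stage change 5.04 ± 0.34, adjusted p = 9.8e-15). The parthenogenetic 2-cell arrays were above and the parthenogenetic 1-cell arrays below all fertilized arrays. Hspa1b had the same form, with 743, 861, 796 and 858 on fertilized 2-cell and 468, 464, 523 and 437 on fertilized 1-cell arrays against the parthenogenetic values given above (3.58 ± 0.25). Hspa1a gave 3.33 ± 0.41, Hes1 3.57 ± 0.52, Ier3 3.56 ± 0.35 and Zfp30 3.28 ± 0.36. Sox2 had 53.9, 85, 112 and 57.6 on fertilized 2-cell and 102, 121, 86.7 and 178 on fertilized 1-cell arrays (3.31 ± 0.41), and its change in SCNT embryos was -2.41. Cdkn2c (3.21 ± 0.30), Ier2 (2.78 ± 0.59), Id1 (2.25 ± 0.63), Hspa2 (2.13 ± 0.38) and Ddit3 (2.44 ± 0.42) differed in the same direction, as did Mt1 (1.46 ± 0.40) and Mt2 (1.36 ± 0.24). The difference was not called for Mt1 with its probe sets averaged (0.63) or for Zfp30 without the filter on low values (0.04). Glrx, glutaredoxin, was among the most positive with a smaller fall (difference -1.80 in parthenogenetic and -5.86 in fertilized embryos).

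At the other extreme were genes that fell in parthenogenetic embryos and rose in fertilized ones. Rps4l, a ribosomal protein S4 paralog, had 4.4, 4.4, 2.9 and 8.8 on parthenogenetic 2-cell arrays against 929, 770.4, 616 and 607 on fertilized 2-cell arrays, and 47.4, 59.4, 64.7 and 63.9 on parthenogenetic against 53.5, 33.3, 41.9 and 39.5 on fertilized 1-cell arrays. The kinds of embryo overlapped at the 1-cell stage and were far apart at the 2-cell stage, with a difference in stage change of -6.63 ± 0.52 (adjusted p = 4.9e-13). Against SCNT embryos it was -7.17 ± 0.54. Cinp, a partner of CDK2 in genome upkeep, gave -5.23 ± 0.39, Depdc1b -4.59 ± 0.47, the metalloprotease Mep1b -4.31 ± 0.68, the ubiquitin ligase component Rbck1 -4.26 ± 0.61, Gpatch4 -4.20 ± 0.45, Mpp4 -4.09 ± 0.58 and the helicase Ddx49 -4.03 ± 0.41. These 7 genes were at or below intensities of 102.4 on all parthenogenetic arrays. Brighter ones included Tkt, transketolase of the pentose phosphate pathway, which had 79.6, 90.2, 118 and 109.7 on the 2-cell arrays, against 483, 559, 454 and 416 on the 1-cell arrays. Tkt had 1090.2, 849, 729.6 and 985 on fertilized 2-cell and 342, 324, 317 and 359.9 on fertilized 1-cell arrays (-3.77 ± 0.21). The proteasome subunits Psma6 (-3.30 ± 0.23) and Psmb4 (-3.38 ± 0.26) and the mitochondrial ribosomal protein Mrps10 (-2.96 ± 0.34) likewise had opposite calls. Kat2b and Myc, not called in parthenogenetic embryos, rose by 4.64 and 3.71 in fertilized ones (-4.22 ± 0.43 and -3.11 ± 0.60).

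**Figure D5:**
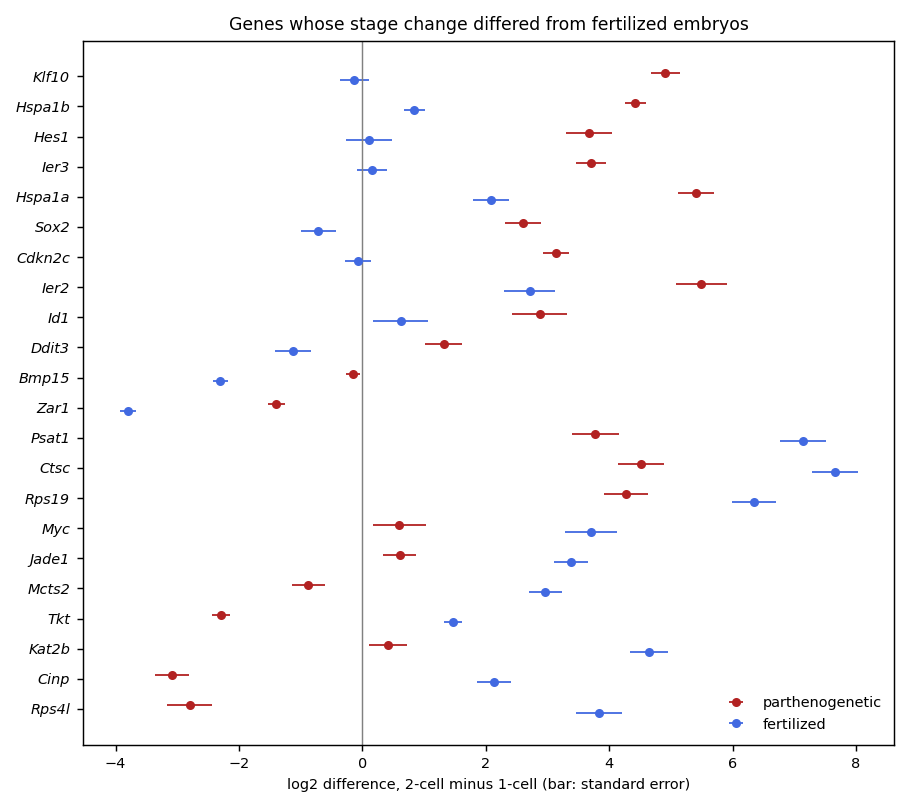
Log2 difference between the stages (2-cell minus 1-cell, points with standard error bars) of 22 genes in parthenogenetic and fertilized embryos, chosen among genes whose stage change was called different. Klf10 is at 4.91 in parthenogenetic and -0.13 in fertilized embryos, and Rps4l at -2.80 and 3.83.

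Against SCNT embryos the extremes were partly others. Klf10 (5.27 ± 0.35) and Sox2 (5.01 ± 0.42) led the more positive side, with the centriolar gene Hyls1 (3.63 ± 0.34), Tbx3 (4.26 ± 0.33), Ier3 (4.12 ± 0.36) and the serine protease Prss8 (3.86 ± 0.45), while Ccdc14 (4.28 ± 0.40) and Olfr976 (4.27 ± 0.18) fell less than in SCNT embryos. On the more negative side were Rps4l, Gpatch4 (-5.18 ± 0.47), Psmb4 (-4.79 ± 0.27), Tkt (-4.59 ± 0.21), Mrps10 (-4.41 ± 0.36), Rbck1 (-4.07 ± 0.64), Ddx49 (-4.05 ± 0.43) and Prkar1a, the regulatory subunit of protein kinase A, which fell in parthenogenetic embryos (-2.25) and rose in SCNT embryos (2.15), a difference of -4.40 ± 0.31. In fertilized embryos it was at -0.10, not called.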

How the data were processed

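Affymetrix arrays of 45101 probe sets were hybridized with biotin-labelled poly(A) RNA of B6D2 embryos, per the labels. The deposited table holds linear probe set intensity, brought by the authors to 1 trimmed mean on all arrays, and the software is not given in the sources used here. The column of 1 planned array (1-cell SCNT replicate 2) is empty, which leaves 39. Control probe sets (64) were set aside. A constant of 6.9, the 20th percentile, was added before log2, followed by quantile normalization. Probe sets were kept when over the overall median (5.34) on 4 or more arrays and listed with 1 gene, and the brightest one stood for each of 14916 genes, named from the platform annotation and RefSeq. limma 3.58.1 (R 4.3.3) fitted a mean per group to all 39 arrays (29 residual degrees of freedom, variance trend). Tests were 2-sided, with Benjamini-Hochberg adjustment over all genes and a threshold of 0.05. Interactions are differences between stage changes in that fit. Fold changes are on the log2(value + 6.9) scale and understate changes of dim genes. Control probe sets were compared by exact permutation tests.

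The comparison, gene lists and named genes were chosen with earlier results of these data known. The rule for names takes the 12 largest called rises and falls with stages that do not overlap, 8 per direction of each interaction, 6 per class by amanitin, up to 6 called and 3 other members of a list (any member of short lists), and genes fixed by name. Of the last, Zscan4d, Usp17lc, Trp53, Snrpn, H19, Gapdh, Nanog, Ddx3y and Zfy1 were not among the genes tested. Replicate numbers do not pair samples (correlation of residuals -0.0276 to 0.0047). The steps were tested on simulated data. The number of arrays and the signal over background limit precision. Results were recomputed without the filter on low values, with that filter applied to mean levels, with deposited or median-centred values, with other constants (1.8 and 22.1), with probe sets averaged per gene, without the variance trend, with weights per array, on the compared groups alone, with replicate number as a block, and leaving out single arrays.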

Additional observations from a re-analysis of the deposited data

Results flagged for a closer look

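Several results stand out by the spread of arrays within a group or by opposite changes in parthenogenetic and fertilized embryos. In 19 of 420 groups of 4 arrays (4.52%), 1 array lay so far from the rest that its gap to the nearest one, as a share of the whole range, passed Dixon's critical value of 0.829. Chance alone passes about 1 group in 20. Among 2-cell parthenogenetic arrays the highest stood apart for Zfp36l2 (0.859), Aplf (0.912), Dnajb4 (0.895), Ttk (0.854), Pou5f1 (0.871) and Rbck1 (0.903). The lowest 2-cell array stood apart for Dmrta2 (0.946), Rrp12 (0.954), Psmc1 (0.906), Eif2s3y (0.835), Dppa4 (0.870) and Klf4 (0.862). Among 1-cell parthenogenetic arrays the lowest stood apart for Pabpn1l (0.949), Rps4l (0.925), Nop2 (0.953) and Atf3 (0.882), and the highest for Cct6a (0.839), Tfb1m (0.843) and Uhrf1 (0.901).

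The stage change differed between parthenogenetic and fertilized embryos for 5286 genes and between parthenogenetic and SCNT embryos for 6026 genes, each by the interaction in limma with Benjamini-Hochberg adjustment. Of the genes named, those called in opposite directions were listed on condition that the interaction was also called. More negative in parthenogenetic embryos were Rps4l (-6.63), Cinp (-5.23), Depdc1b (-4.59), Mep1b (-4.31), Rbck1 (-4.26), Gpatch4 (-4.20), Mpp4 (-4.09), Ddx49 (-4.03), Mcts2 (-3.84), Tkt (-3.77), Psmb4 (-3.38), Psma6 (-3.30) and Mrps10 (-2.96). More positive were Sox2 (3.31), Ddit3 (2.44), Hyls1 (1.73) and Pou5f1 (1.28).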

How the results depend on the processing

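The counts of genes kept within 1.5 times of those reported in all settings run, with these exceptions. With median centring 2126 genes rose in parthenogenetic embryos and 1870 had a more positive stage change than in fertilized embryos. Between the stages under amanitin 4857 genes were higher with the values as deposited, and 1003 were higher and 4410 lower with median centring. The cause was not tested. Shares of the genes chosen on SCNT arrays called the same way in parthenogenetic or fertilized embryos moved past that range in no setting. Their medians were not recomputed. Of the gene list values, 68 of 1748 did move past it.

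With 1 array left out, 2988 to 3162 genes rose and 3859 to 3940 fell in parthenogenetic embryos. The interaction gave 2769 to 2927 more positive and 2188 to 2358 more negative genes against fertilized embryos, and 3154 to 3344 and 2448 to 2600 against SCNT embryos. With amanitin in fertilized 2-cell embryos 5492 to 5566 genes were higher and 3683 to 3789 lower, and between the stages under amanitin 2867 to 2975 and 2634 to 2732.

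The replicate block, run although the numbers do not pair the samples, gave 3249 rises and 4082 falls, 2938 and 2337 interactions against fertilized embryos, and 3373 and 2630 against SCNT embryos.

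Some differences of named genes changed sign. With median centring the parthenogenetic difference was -0.45 for Zp1, -0.46 for Zp3, -0.42 for Cnot7, -0.48 for Arg2, -0.60 for Rpl13a, -0.38 for Pou5f1 and -0.27 for Actb. With probe sets of a gene averaged it was -0.24 for Cnot7 and -0.54 for Phgdh, and the interaction against fertilized embryos was 0.39 for Camk2g, 0.47 for Cnot4, -0.63 for Taf1d, -1.05 for Slc30a1 and -0.36 for H13. Without a filter the interaction of Eif2s3y was 0.065, on another probe set. Dim genes, with intensities near the constant of 6.9, have differences whose size depends on it.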
